A study of Mus musculus with 17 samples.

Results

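The genes described here are 9 components of the epithelial junctions: the claudins Cldn19, Cldn1, Cldn2 and Cldn3, the tight junction proteins Tjp1 and Ocln, and the cadherins Cdh1, Cdh2 and Cdh3. They were taken by symbol from a count table of 22253 genes, and all 9 symbols were present. The 17 libraries of the table came from hand-picked pools of retinal pigment epithelium (RPE) cells of 2-month-old Serpine3GFP/+ mice, with 10 to 15 cells in each pool by the labels, where the study's methods give a smaller range. The groups were GFP+-RPE cells (6 libraries), GFP– cells of the periphery (peripheral GFP–-RPE, labelled ctrl periphery, 5 libraries) and GFP– cells of the center (central GFP–-RPE, labelled ctrl center, 6 libraries). All groups shared the genotype, in which 1 Serpine3 allele carries a GFP reporter inserted in exon 2 to mark cells that use the gene, and no wild-type mice entered the comparison. Each group has a library of mice 1, 2, 4, 5 and 7, while mouse 3 is represented in GFP+-RPE alone and mouse 6 in central GFP–-RPE alone. Mouse 1 carries 2 animal numbers in the labels and was taken as a pool. The animal numbers form 2 runs, mice 1 to 3 and mice 4 to 7.

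Tight junctions close the space between neighbouring RPE cells and make the outer blood-retinal barrier. Claudins are the membrane proteins that set which ions pass, occludin (Ocln) is a further membrane protein of the strand, and ZO-1 (Tjp1) ties both to the actin belt inside the cell. The adherens junction beneath rests on cadherins, which bind the cadherins of the next cell and are held from inside by catenins. Cldn19 is known as a major claudin of the RPE, where its loss of function is linked to eye disease in people, and P-cadherin (Cdh3) is known as the principal cadherin of the RPE.

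Total counts ranged from 9896118 to 22467079 per library. Mitochondrially encoded genes took 0.71% to 17.2% of the counts of GFP+ libraries, 12.5% to 30.4% in the periphery and 13.7% to 47.3% in the center. The central libraries of mice 4, 5 and 7 stood apart, with 5392 to 6681 genes at 10 counts or more against 7966 to 10543 in the other libraries outside the GFP+ group and 9089 to 10231 in GFP+-RPE. Serpine3 was at 12.2 ± 6.48 CPM (SD, n = 6) in GFP+-RPE, with at most 5 counts in any peripheral GFP– library and 0 counts in every central library. Among 12 RPE markers the summed level ranged from 46925 to 93398 CPM over the libraries, but Best1, a defining RPE gene, never exceeded 2 counts. A gene listed at 0 in this table may therefore be one that the cell type uses. Of the markers of other cell types, 5 of 9 for endothelium (Cdh5, Tek, Tie1, Emcn, Cldn5), 2 of 7 for fibroblasts (Col1a2, Pdgfra) and 3 of 6 for macrophages (Cx3cr1, C1qa, Aif1) were at or under the floor of 3 counts in all 17 libraries. The summed markers of endothelium, which carries claudins and cadherins of its own, reached at most 14.9, 8.92 and 4.80 CPM in the libraries of GFP+-RPE, the periphery and the center, and those of fibroblasts at most 7.96, 10.6 and 4.35 CPM. The macrophage sum ran from 38.1 to 110.5 CPM in GFP+-RPE, from 105.1 to 146.5 in the periphery and from 68.4 to 115.5 in the center. In the same order the photoreceptor sum (1 of 10 markers at or under the floor, Arr3) was 61.0 to 124.5, 68.1 to 143.5 and 35.5 to 216.8 CPM, and the melanocyte sum (0 of 5) was 56.0 to 168.4, 54.2 to 163.1 and 64.1 to 240.7 CPM. The ciliary and iris epithelium sum (2 of 6, Opcml and Wfdc1) was 560.9 to 755.2, 514.8 to 909.8 and 294.0 to 655.8 CPM, and the Mueller glia sum (1 of 6, Aqp4), a list that shares Rlbp1 with the RPE markers, was 6672 to 8278, 5752 to 9711 and 6065 to 11765 CPM. The part of such cells in the results was not tested.

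CPM below is the count at a fixed library total, scaled by TMM (a factor that evens out differences in RNA composition). In pools of this kind, fewer cells that use a gene and less RNA per cell cannot be told apart. Levels of different genes were compared only as CPM per kilobase of exon. On that scale Cldn1 led with 72.5 ± 25.6 (SD, n = 17 libraries), followed by Cldn19 with 33.9 ± 47.9, Cdh3 with 23.7 ± 16.1 and Cldn2 with 11.9 ± 8.34. Ocln (4.89 ± 4.95), Tjp1 (3.15 ± 2.31) and Cdh2 (0.99 ± 1.35) came next. Cldn1 exceeded Cldn19 in 15 of 17 libraries, and Cldn2 exceeded Ocln in 13 of 17. Cldn19 and Cdh3 were not separated, with Cldn19 the higher in 9 libraries and Cdh3 in 8, nor were Ocln and Tjp1, with Ocln the higher in 10 and Tjp1 in 7. Cdh3 exceeded Cldn2 in 11 libraries and was below it in 6. The order was the same when the length of the longest coding transcript was used.

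**Figure D1:**
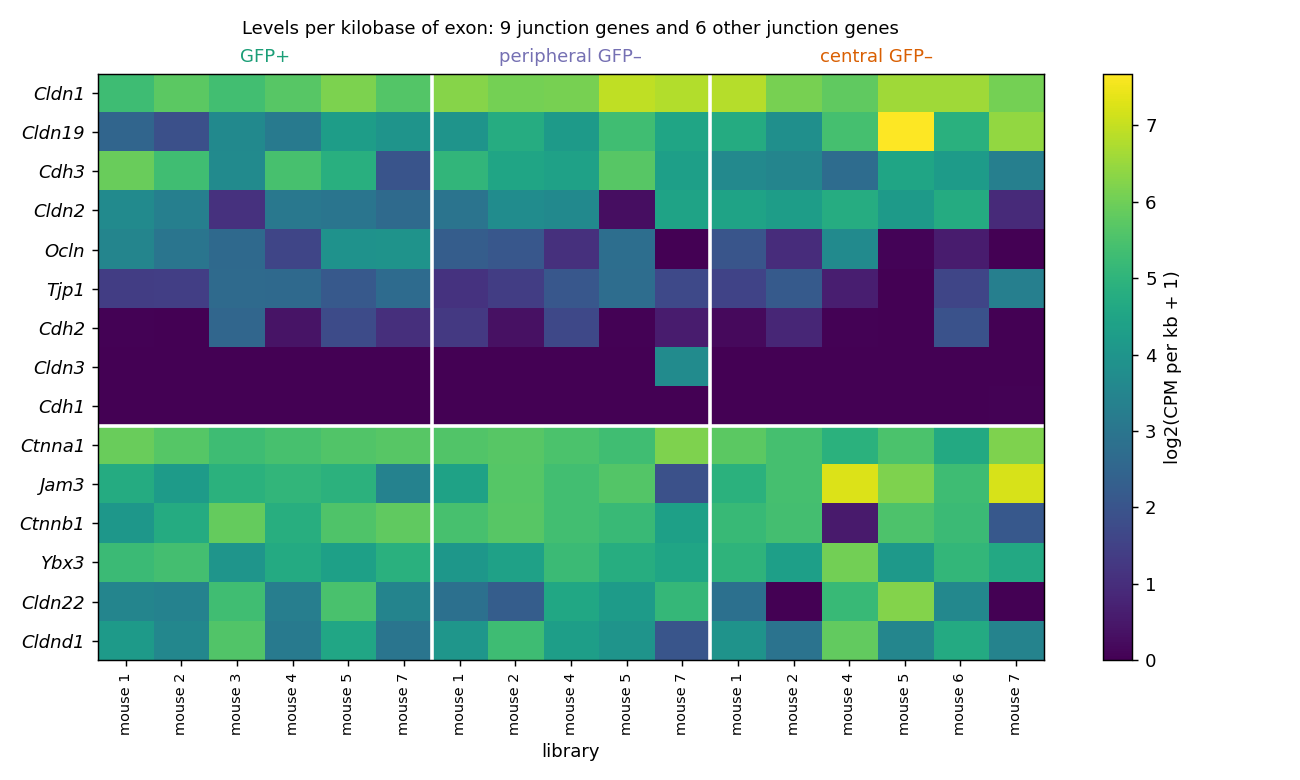
Levels of the 9 junction genes (top, in order of mean level) and of the 6 other junction genes with the highest mean level (bottom) in each of the 17 libraries, as log2(CPM per kb + 1) by color. Cldn1 and Ctnna1 were detected in every library, while the rows of Ocln, Tjp1 and Cdh2 hold single libraries near 0, and Cldn3 and Cdh1 were at or near 0 in all libraries except 1 for Cldn3.

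No member passed the limits for a call in any comparison. A call needed a Benjamini-Hochberg adjusted p below 0.01 over all genes tested, by edgeR's quasi-likelihood test, together with a log2 fold change beyond 1 in either direction. Of the 9 members 7 passed the filter on low counts, and Cldn3 and Cdh1 did not. In GFP+-RPE against central GFP–-RPE, 0 of 7 members were called and 2 had an unadjusted p under 0.05, where 0.0431% of all 9286 genes tested were called and 539 (5.80%) had such a p. In GFP+-RPE against peripheral GFP–-RPE, 0 of 7 were called and 2 had an unadjusted p under 0.05, where 0.0396% of 10102 genes were called and 564 (5.58%) had such a p. In peripheral against central GFP–-RPE, 0 of 7 were called and 2 had an unadjusted p under 0.05, where 0% of 9535 genes were called and 257 (2.70%) had such a p. DESeq2 called 1 member (Cldn19) in the first comparison and 0 in the others. Over all genes DESeq2 called 83 higher and 123 lower of 12057 in the first comparison. In the second it called 37 and 30 of 11997, and in the third 17 and 11 of 11668. The value ranges of the groups overlapped for all 7 members in all 3 comparisons, against 1.13%, 1.29% and 0.755% of all genes tested whose ranges did not overlap, in the same order. The median log2 fold change of the 7 members was 0.34, 0.11 and 0.02, beside 0.00067, 0.01 and 0.01 over all genes tested. The 3 comparisons share libraries and were not set against each other.

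**Figure D2:**
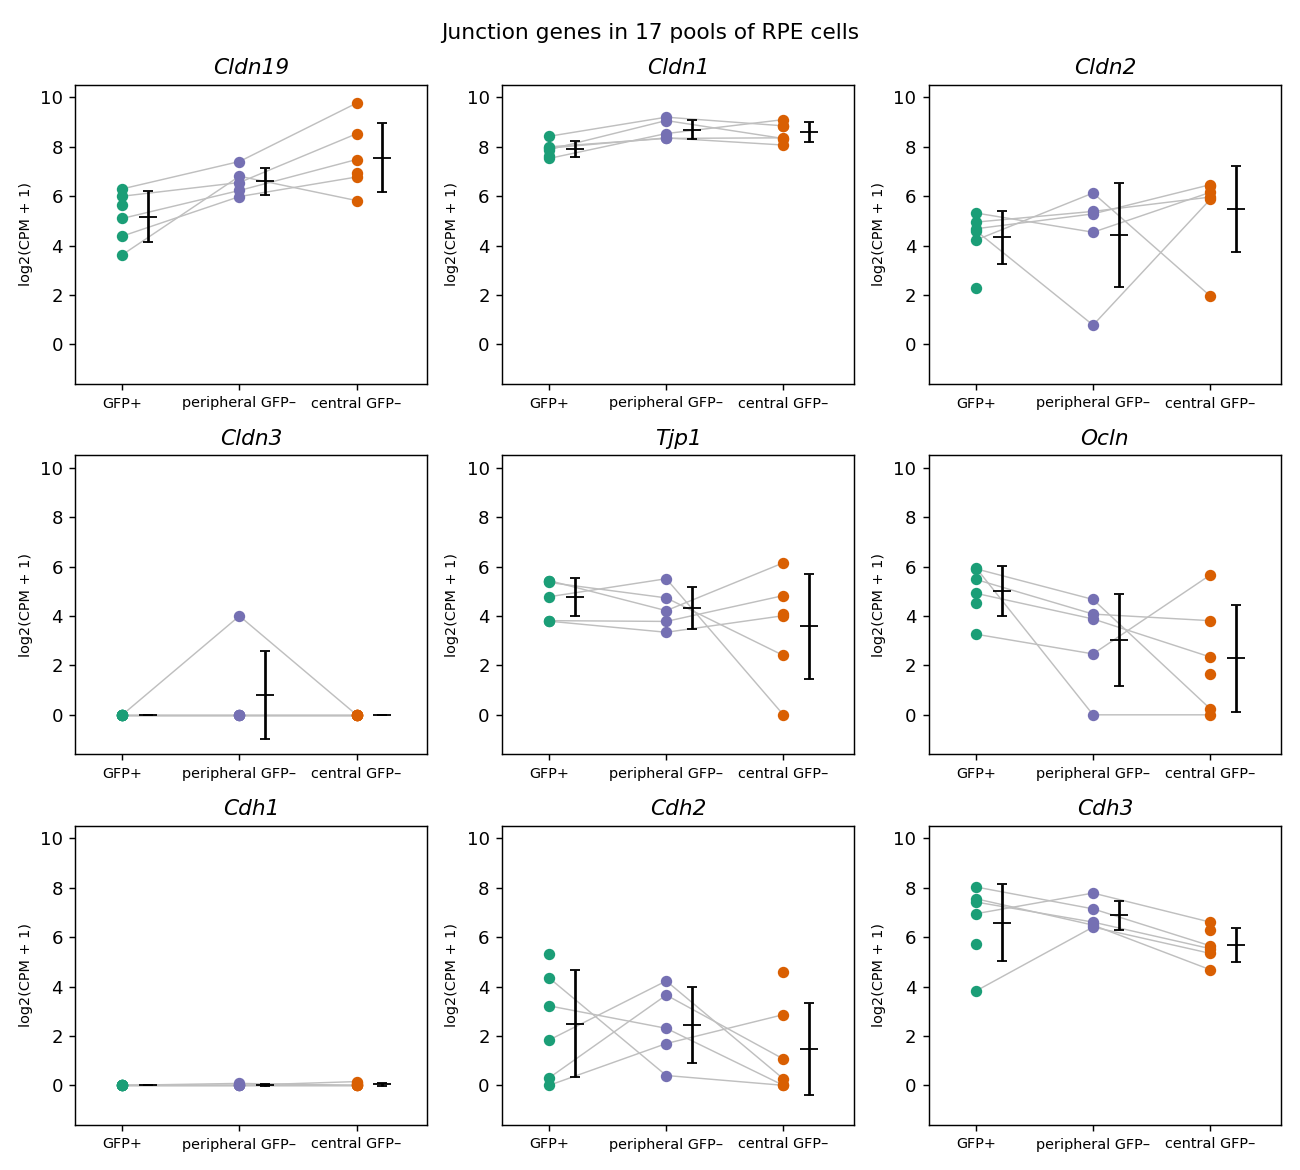
Level of each junction gene as log2(CPM + 1) by group. Points are libraries, grey lines join libraries of 1 mouse, and the black bars beside the points are the mean ± SD of the log2 values. Cldn19 and Cldn1 lay lower in GFP+-RPE than in both other groups in each of the 5 mice with all groups.

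Among the tight junction claudins, Cldn19 had the largest difference of the members between GFP+-RPE and central GFP–-RPE. Its level in the 6 GFP+-RPE libraries had a lowest value of 11.3, a median of 41.3 and a highest of 77.4 CPM. The peripheral GFP– libraries of mice 1, 2, 4, 5 and 7 were at 62.2, 110.8, 73.9, 167.9 and 92.7 CPM. The 6 central libraries ran from 55.5 through a median of 149.5 to 868.1 CPM, the last in mouse 5. The GFP+ libraries were the low end and the central libraries the high end, yet the highest GFP+ library lay above the lowest of both other groups. The log2 fold change of GFP+-RPE against central GFP–-RPE was −2.92 (SE 0.66, 95% interval −4.31 to −1.54), with an adjusted p of 0.0729 in edgeR. Cldn19 was lower in GFP+-RPE in 5 of 5 mice. With the mouse as a replicate block (5 mice, so that the libraries of mice 3 and 6 drop out) the log2 fold change was −2.72 with an adjusted p of 0.00219, which is a call. In that fit the median over all genes was 0.58, which was not subtracted from the values given. The same fit called 2 genes higher and 58 lower of 9389 tested. DESeq2 gave −2.98 with an adjusted p of 0.00947, also a call. Over 23 alternatives the adjusted p ranged from 0.00219 to 0.682. The value rests in part on the central library of mouse 5, without which it was −2.03 (adjusted p = 0.202). Without the central libraries of mice 4, 5 and 7, those with few genes, it was −1.20 (adjusted p = 0.682).

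Against peripheral GFP–-RPE the log2 fold change of Cldn19 in GFP+-RPE was −1.27 (SE 0.44), with an adjusted p of 0.681, and GFP+-RPE was the lower in 5 of 5 mice. Between peripheral and central GFP–-RPE it was −1.61 (SE 0.61, adjusted p = 0.9995), lower in the periphery in 4 of 5 mice. The last value was −0.71 without the central library of mouse 5 and 0.058 without the 3 central libraries with few genes, so that it turned. Within the first run of animals the mean of Cldn19 was 26.8 CPM in GFP+-RPE (n = 3), and within the second it was 57.8 (n = 3). The peripheral and central means were 86.5 (n = 2) and 81.9 CPM (n = 2) within the first run, and 111.5 (n = 3) and 383.5 CPM (n = 4) within the second.

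The Cldn19 counts moved with a group of genes that includes mitochondrially encoded and olfactory receptor genes. Of 7931 other genes with 10 counts or more in at least 12 libraries, 142 had a Spearman correlation with Cldn19 of at least 0.9 over the 17 libraries, where none reached that value for Cldn1, Cldn2, Tjp1, Ocln or Cdh3. The nearest were the olfactory receptor gene Olfr907 and the neuronal gene Slitrk2, both at 1.00, and Dppa2 at 0.9975. All 13 mitochondrially encoded genes compared were among the 142, as were 17 of 31 olfactory receptor genes. All these correlations are descriptions over libraries that share mice, depth and composition. Cldn19 had a correlation of 0.968 with the mitochondrial share of the library.

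What most of these genes share in their annotated transcripts is a long unbroken run of A or T. A run of at least 25 bases stood in 103 of the 128 genes outside the mitochondria with a correlation of at least 0.9 and a known transcript (80.5%), and in 263 of 7697 genes below that correlation (3.42%). For Cldn19 the run is 29 T long, at chr4:119262236-119262264 (GRCm38, plus strand) in exon 4 of 4 of the transcript Cldn19-202, in the 3′ UTR, close to the end of the gene at chr4:119255414-119262438. The start of that run is shown with those of 2 genes of like pattern, Ddx23, which encodes a splicing helicase (run of 40 T at chr15:98645249-98645288, minus strand), and Olfr907 (run of 33 T at chr9:38499805-38499837, plus strand), since the run is what these unrelated transcripts have in common. Both of those runs also lie in the 3′ UTR of the last exon. Each is written 5′ to 3′ along the transcript from GENCODE M21, 5 bases before the run in lower case and its first 25 bases in capitals.
Cldn19: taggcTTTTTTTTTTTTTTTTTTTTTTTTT
Ddx23: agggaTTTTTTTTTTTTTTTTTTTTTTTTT
Olfr907: ttttcTTTTTTTTTTTTTTTTTTTTTTTTT

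The longest A or T run was 8 bases in Cldn1 and in Cldn2, 9 in Tjp1, 14 in Cdh3 and 17 in Ocln. By run length, the median correlation with Cldn19 was −0.15 for 6036 genes with runs up to 14 bases, 0.17 for 254 genes with 25 to 29, 0.82 for 57 genes with 30 to 34 and 0.97 for 55 genes with 35 or more. Cldn19 itself thus falls in the class of 25 to 29, in which 40 of 254 genes had a correlation of at least 0.9.

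Olfr907 and Ddx23 were chosen for a pattern like that of Cldn19, so that a narrow spread of their ratios to Cldn19 follows from the choice and is a description only. Per 100 counts of Olfr907, Cldn19 had 8.63 ± 0.36 counts (SD, n = 6) in GFP+-RPE, 9.46 ± 0.43 (SD, n = 5) in the periphery and 9.98 ± 0.81 (SD, n = 6) in the center. The GFP+ libraries were at 8.04 to 8.92, those of the periphery at 8.94 to 9.84 and those of the center at 9.27 to 11.3. The ranges of GFP+-RPE and the periphery thus nearly met. How often ratios of other gene pairs part the groups in this way was not tested. Over all libraries the ratio spanned 1.41 times and the Cldn19 level in CPM 76.5 times. Per 1000 counts of Ddx23, Cldn19 had 4.29 ± 0.24, 4.72 ± 0.46 and 4.91 ± 0.46 counts in the same order. In that ratio the GFP+ libraries (3.94 to 4.66) overlapped those of the periphery (4.11 to 5.29) and the center (4.31 to 5.67). The ratios to Fhl3 and Olfr157, whose transcripts hold runs of 38 and 39 T, also overlapped between GFP+-RPE and both other groups. Ddx23 itself was at 55848 ± 58692 CPM (SD, n = 6) in the center and at 9957 ± 6345 CPM (SD, n = 6) in GFP+-RPE. Genes with a run of at least 25 bases took 2.98% to 6.50% of the counts of GFP+ libraries, 5.29% to 9.97% in the periphery and 4.75% to 20.5% in the center. How many of the reads given to Cldn19 came from claudin-19 mRNA was not tested, and the part of the runs in the difference of Cldn19 between groups was not tested.

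**Figure D3:**
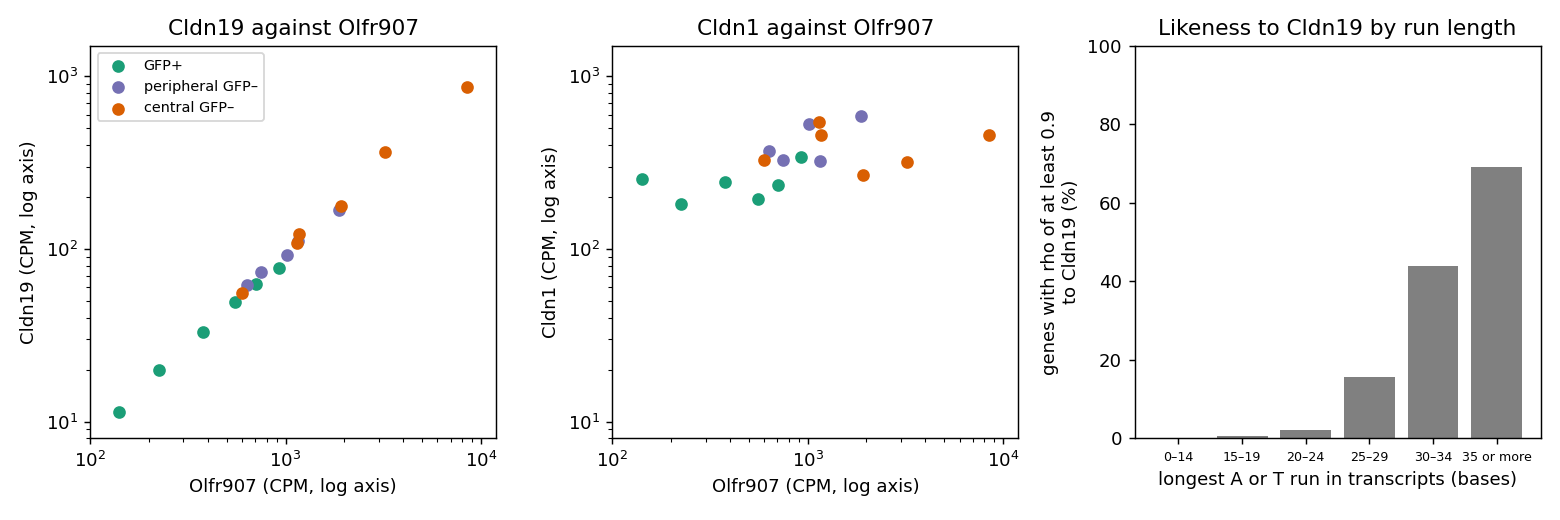
Left, Cldn19 against Olfr907 in the 17 libraries (CPM, both axes logarithmic), with a ratio of 8.04 to 11.3 counts per 100. Olfr907 was chosen for its likeness to Cldn19. Middle, Cldn1 against Olfr907 on the same axes. Right, the percentage of genes with a Spearman correlation of at least 0.9 with Cldn19, by the longest A or T run in their transcripts, from 0.166% for runs up to 14 bases to 69.1% for runs of 35 or more.

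Cldn1, a barrier-forming claudin of many epithelia, was the most even member, with a coefficient of variation of 35.3% over all libraries against 68.1% to 141.0% for the other members with a mean of at least 7 CPM. Its level ran from 183.2 through a median of 240.0 to 341.9 CPM in GFP+-RPE. In peripheral GFP–-RPE it was 369.2, 322.2, 326.7, 585.1 and 532.1 CPM in mice 1, 2, 4, 5 and 7. In central GFP–-RPE it ran from 267.2 through 392.1 to 545.8 CPM. The GFP+ libraries were the low group, and the one of mouse 5 alone reached into the ranges of the other groups.

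The log2 fold change of Cldn1 in GFP+-RPE was −0.80 against both groups, with an SE of 0.26 (95% interval −1.35 to −0.25, adjusted p = 0.334 in edgeR) against central GFP–-RPE and of 0.23 (95% interval −1.29 to −0.31, adjusted p = 0.556) against peripheral GFP–-RPE, so that neither difference was a call. Cldn1 was lower in GFP+-RPE than in the library of the same mouse in 5 of 5 mice in both comparisons. Over 24 and 22 alternatives the log2 fold change stayed between −0.92 and −0.64 and between −0.93 and −0.62, and no alternative gave an adjusted p below 0.164 and 0.0874, respectively. Within the first run of animals the mean was 210.4 CPM in GFP+-RPE (n = 3), 345.7 in the periphery (n = 2) and 436.6 in the center (n = 2). In the second run the means were 273.9 (n = 3), 481.3 (n = 3) and 375.9 CPM (n = 4). The level of Cldn1 had a Spearman correlation of 0.659 with the mitochondrial share over the 17 libraries, and the part of that share in the difference was not tested. Peripheral and central GFP–-RPE differed by 0.03 (95% interval −0.58 to 0.65).

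Cldn2, which forms a pore for cations and water in leaky epithelia, was uneven. In GFP+-RPE it ran from 3.82 through a median of 23.9 to 38.8 CPM. Peripheral GFP–-RPE had 22.2, 40.7, 37.9, 0.71 and 68.8 CPM in mice 1, 2, 4, 5 and 7, and central GFP–-RPE ran from 2.88 (mouse 7) through 65.7 to 87.2 CPM. A single low library in each group stood against higher ones, and the groups overlapped. GFP+-RPE differed from central GFP–-RPE by a log2 fold change of −1.45 (SE 0.70, 95% interval −2.93 to 0.04, adjusted p = 0.871) and was lower in 4 of 5 mice. With mouse as a block the value was −0.74 (adjusted p = 0.949), in a fit whose median over all genes was 0.58, which was not subtracted. Without the central libraries of mice 4, 5 and 7, those with few genes, it was −1.65 (95% interval −2.84 to −0.46, adjusted p = 0.543 in edgeR). The values against peripheral GFP–-RPE (−0.51, 95% interval −2.13 to 1.11) and between the GFP– groups (−0.90, 95% interval −2.74 to 0.94) had intervals that cover 0.

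Cldn3, a claudin of tight epithelia, had counts in a single library, the peripheral GFP– library of mouse 7, with 152 counts or 15.0 CPM. The other 16 libraries had 0 counts, which allows up to 3 counts, or 0.116 to 0.554 CPM depending on the library. Such floors cover counting error only, since PCR copies were counted. The same library held 771 counts of Cdh11, the highest of that gene among all libraries.

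**Figure D4:**
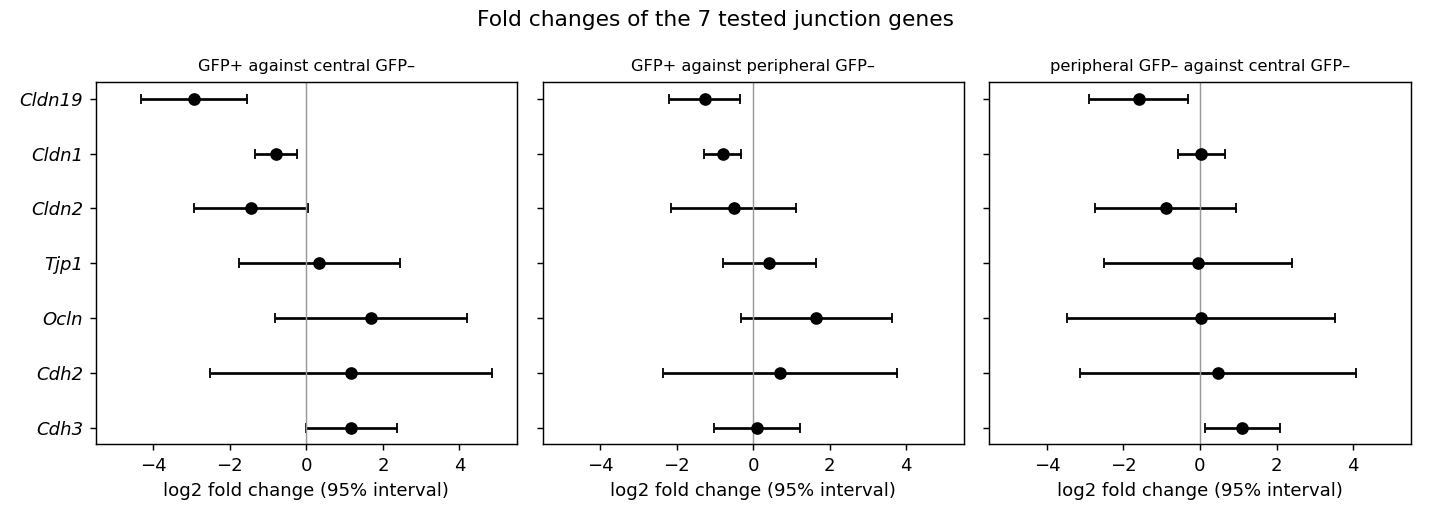
Log2 fold changes of the 7 tested members in the 3 comparisons, with 95% intervals from edgeR's quasi-likelihood fit. The intervals of Cldn19 and Cldn1 lie below 0 in both comparisons of GFP+-RPE, those of Tjp1, Ocln and Cdh2 cover 0 throughout, and none passed the adjusted limit.

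Of the remaining tight junction proteins, Tjp1 had its lowest GFP+-RPE value at 12.8, the median at 33.2 and the highest at 42.3 CPM. The peripheral libraries had 9.14, 12.7, 25.6, 44.6 and 17.6 CPM in mice 1, 2, 4, 5 and 7. In the center it ran from 0 (mouse 5) through 15.6 to 70.2 CPM (mouse 7), so that the central group held both the lowest and the highest library of all. The log2 fold change was 0.34 (SE 1.00, 95% interval −1.76 to 2.44) against the center and 0.43 (SE 0.58, 95% interval −0.80 to 1.65) against the periphery, and −0.05 (SE 1.17) between the GFP– groups. Against the center the value was 1.19 without the central library of mouse 7 and ran from 0.076 to 1.19 on leaving out any 1 library. With the mouse as a block it was 1.02, in a fit whose median over all genes was 0.58. These intervals do not show that Tjp1 was alike in the groups.

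Ocln ran from 8.60 through a median of 36.4 to 61.0 CPM in GFP+-RPE. In peripheral GFP–-RPE it was 15.9, 13.7, 4.52, 24.5 and 0 CPM in mice 1, 2, 4, 5 and 7, and in central GFP–-RPE it ran from 0 through 3.12 to 49.6 CPM (mouse 4). GFP+-RPE was the higher in 5 of 5 mice against the periphery and in 4 of 5 against the center, with the groups overlapping. The log2 fold change was 1.65 (SE 0.93, 95% interval −0.33 to 3.62, adjusted p = 0.970 in edgeR) against peripheral and 1.69 (SE 1.19, 95% interval −0.83 to 4.21, adjusted p near 1) against central GFP–-RPE. Without the central library of mouse 4 the latter was 3.14 (adjusted p = 0.556), and with the mouse as a block it was 3.62 (adjusted p = 0.919). The median over all genes in that block fit was 0.58. Without the central libraries of mice 4, 5 and 7, those with few genes, the value against central GFP–-RPE was 2.44 (95% interval 0.62 to 4.26, adjusted p = 0.583 in edgeR). Libraries at or near 0 were common at this level: of 5182 genes with a mean of 7 to 45 CPM, 79.5% had at least 1 library at or under 3 counts, as Ocln, Tjp1 and Cdh2 did and Cldn2 did not.

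Of the 3 cadherins among the members, Cdh3 was the one with more than 3 counts in every library. Its level ran from 13.1 (mouse 7) through a median of 146.4 to 260.1 CPM (mouse 1) in GFP+-RPE. Peripheral GFP–-RPE had 140.4, 96.5, 88.6, 219.2 and 83.9 CPM in mice 1, 2, 4, 5 and 7, and central GFP–-RPE ran from 24.6 through 47.2 to 96.5 CPM. The central libraries were the low group, with a highest value that passed 2 of the 5 peripheral ones. In peripheral against central GFP–-RPE the log2 fold change was 1.10 (SE 0.46, 95% interval 0.12 to 2.08, adjusted p near 1), with the periphery higher in 5 of 5 mice and by 1.12 without the 3 central libraries with few genes. In GFP+-RPE against central GFP–-RPE it was 1.18 (SE 0.56, 95% interval −0.01 to 2.37, adjusted p = 0.856), higher in 4 of 5 mice. GFP+-RPE and peripheral GFP–-RPE differed by 0.11 (SE 0.53, 95% interval −1.02 to 1.23). The mean was higher in the periphery than in the center within both runs of animals, at 118.4 (n = 2) against 47.2 CPM (n = 2) and at 130.6 (n = 3) against 59.4 CPM (n = 4).

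Cdh1 (E-cadherin), the classic cadherin of epithelia, had at most 1 count in any library and 3 counts in all 17 together. It lies on chromosome 8 next to Cdh3 and on the same strand, with 46053 bases between the end of Cdh3 (chr8:106510891-106557297) and its start (chr8:106603351-106670246), while Cdh3 had 29329 counts over the 17 libraries. Cdh2 (N-cadherin), best known from neural and mesenchymal cells, ran from 0 through 5.43 to 38.6 CPM in GFP+-RPE. It was at 11.6, 2.23, 17.7, 0.32 and 3.95 CPM in the peripheral libraries of mice 1, 2, 4, 5 and 7, and from 0 through 0.65 to 22.9 CPM in the center. The highest GFP+ library was that of mouse 3 and the highest central library that of mouse 6, and each of these mice has a library in 1 group only. The intervals of the log2 fold changes of Cdh2 (1.17, SE 1.75, 0.70, SE 1.44, and 0.47, SE 1.71, in the order of comparisons above) were wider than those of any other member. Leaving out 1 library moved the value against the center between 0.29 (without the GFP+ library of mouse 3) and 2.86 (without the central library of mouse 6). With the mouse as a block the values were 3.26, −2.30 and 4.30, with adjusted p of at least 0.951. The medians over all genes in those fits were 0.58, 0.068 and 0.48.

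The members did not all vary together. Over the 17 libraries the Spearman correlations among Cldn19, Cldn1, Cldn2, Tjp1, Ocln and Cdh3 ran from −0.637 (Cldn2 and Tjp1) to 0.571 (Cldn19 and Cldn1). The genes with the pattern most like that of each member were Rnf152 (0.841), Epas1 (0.819) and Gm20721 (0.806) for Cldn1, and Rer1 (0.814), Zw10 (0.792) and Rnf146 (0.784) for Cldn2. For Tjp1 they were Ltbp3 (0.860), Cdc37l1 (0.811) and Mgll (0.811), for Ocln Sdc2 (0.862), Prkcz (0.851) and Polr2b (0.850), and for Cdh3 Slc25a22 (0.797), Ccdc127 (0.789) and Anapc15 (0.782). The highest correlation of a gene with any other had a median of 0.848 over all genes compared, so that these values are ordinary, unlike that of Cldn19.

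Of 85 other junction genes (claudins, nectins, JAM proteins, catenins, scaffold and polarity proteins and others), 49 were tested in GFP+-RPE against central GFP–-RPE and 50 in each other comparison, and edgeR called 0 in all 3. An unadjusted p under 0.05 was found for 2, 1 and 3 of them in the same order (4.08%, 2.0% and 6.0%), beside 5.80%, 5.58% and 2.70% of all genes tested. DESeq2 called 2, 0 and 0, the first being Cdh11 and Magi1, where it called 83 genes higher and 123 lower of 12057 in the first comparison. The median log2 fold changes of the tested genes of the list were −0.14, −0.11 and 0.10 in edgeR. The ranges of the groups overlapped for every tested gene of the list.

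The 6 of them with the highest level per kilobase included both core catenins. Ctnna1 (alpha-catenin, which links the cadherin complex to actin) had a mean of 47.2 CPM per kb and Ctnnb1 (beta-catenin) of 33.9. The others were Jam3, an adhesion molecule of tight junctions (46.3), Ybx3, a cold shock protein that binds ZO-1 (27.8), Cldn22 (19.6) and, last of the 6, Cldnd1. Ctnna1 was at 307.5 ± 48.0 CPM (SD, n = 6) in GFP+-RPE, 324.2 ± 80.4 (SD, n = 5) in the periphery and 282.1 ± 109.7 (SD, n = 6) in the center. Its coefficients of variation were 15.6%, 24.8% and 38.9% in the same order, beside 23.3%, 28.8% and 27.0% for Cldn1. The log2 fold change of Ctnna1 was 0.03 (95% interval −0.57 to 0.63) in GFP+-RPE against the center and −0.05 (95% interval −0.46 to 0.37) against the periphery.

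Jam3 had the smallest p of these genes, with lower values in GFP+-RPE than in the center. It ran from 30.6 to 102.6 CPM in GFP+-RPE and from 93.0 to 493.3 CPM in the center, where mice 4, 5 and 7 were the high libraries at 493.3, 232.3 and 472.6. The peripheral libraries had 65.1, 158.5, 127.3, 153.1 and 8.90 CPM in mice 1, 2, 4, 5 and 7. The log2 fold change against the center was −1.82 (SE 0.44, 95% interval −2.75 to −0.88), with an adjusted p of 0.0744 in edgeR and 0.0313 in DESeq2, and Jam3 was lower in 5 of 5 mice. Without the central libraries of mice 4, 5 and 7 it was −0.61 (adjusted p = 0.859). The longest A or T run in Jam3 is 7 bases.

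Cdh11, a cadherin of mesenchymal cells, was highest in the peripheral library of mouse 7. It ran from 1.20 to 16.4 CPM in GFP+-RPE, from 0.41 to 76.2 CPM in the periphery and from 0 to 1.65 CPM in the center. Its log2 fold change was 4.07 (SE 1.47) in GFP+-RPE against the center, with an adjusted p of 0.475 in edgeR and 0.00588 in DESeq2, and 5.27 (SE 1.78) in the periphery against the center, with 0.9995 and 0.0238. Magi1, a scaffold protein, was not tested by edgeR in the first comparison because of the filter. Its counts were mostly from the central libraries of mice 5 and 7 (432 and 215 counts), and no other library had more than 69. In the periphery against the center its log2 fold change was −4.66 (SE 2.12) in edgeR, and −0.88 without the 3 central libraries with few genes.

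The polarity kinase gene Prkcz had a log2 fold change of 2.54 (SE 0.87, adjusted p = 0.681) in GFP+-RPE against peripheral GFP–-RPE and 1.98 (SE 1.03) against central GFP–-RPE. Next by p among the higher values came the polarity scaffold genes, Patj (1.96, unadjusted p = 0.0769) against the center, and Mpdz (1.54, unadjusted p = 0.123) and Patj (1.19, unadjusted p = 0.167) against the periphery. On the lower side stood Ctnnd1 (p120-catenin, −1.12) against the center, and Mpp5 (a polarity scaffold, −0.86), Zeb2 (a repressor of epithelial genes, −0.67) and Cldn10 (−1.36) against the periphery. Between peripheral and central GFP–-RPE, Cldn7 (3.19) and Amotl2 (an angiomotin, 1.62) were the higher ones beside Cdh11, and Jam3 (−1.39) was among the lower ones with Magi1. Of the genes in this paragraph, an unadjusted p under 0.05 was found for Prkcz against the periphery and, between the GFP– groups, for Cdh11, Jam3 and Magi1. None passed the adjusted limit in edgeR.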

How the data were processed

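The authors deposited a table of estimated counts per gene symbol, rounded to whole numbers and not normalized, from SMART-Seq libraries of polyadenylated RNA. The submitters' processing notes name fastp, Salmon and GRCm38.p6, without versions. The annotation and the strand setting are not given in the sources used here, so that reads of overlapping genes could be shared. No molecular identifiers are described. All 17 columns matched samples by name and 0 were left unused. Total counts were 9896118 to 22467079 per library.

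CPM values were scaled by TMM over all 17 libraries. Comparisons used the quasi-likelihood test of edgeR 4.0.16 in R 4.3.3 after filterByExpr at default settings, with TMM and without the libraries of the group not compared. SE is the absolute log2 fold change divided by the square root of F, and intervals are 95%. P-values were adjusted over all genes tested. A gene was called below an adjusted p of 0.01 with a log2 fold change beyond 1 in either direction. DESeq2 1.42.0, which the study's methods name, was an alternative, as were RLE or TMMwsp scaling, no filter, a filter of 10 counts in 5 libraries, removal of mitochondrial genes, a fit over all 3 groups, a replicate block for the mouse, a covariate for the run of animal numbers, robust dispersions, an adjusted p under 0.05 at any fold, and each library left out. Removal of genes with an A or T run of at least 25 bases, leaving out central libraries with fewer than 7000 genes at 10 counts or more, and the further alternatives for the other junction genes were added after seeing the data. The fits were run on simulated data, with planted changes larger than any log2 fold change of a member outside the alternatives. Recovery of smaller changes was not tested.

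Libraries were paired by mouse number, since those that share it also share their animal number in the labels (for mouse 1, 2 animal numbers taken as a pool). Correlations of their deviations from the group means ranged between −0.015 and 0.11 (15 pairs, 2 of them over 0.1). Between libraries the highest correlation of log2(count + 1) was 0.924 (136 pairs), so none is a duplicate.

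The members and lists were chosen with earlier results of these data known. The rule for naming took all 9 members and, of the other junction genes, every called gene, the 6 with the highest level per kilobase and the 3 with the smallest p in each direction of each comparison. Some results for single genes that the rule names are not reported here. For each member with 10 counts or more in at least 12 libraries, the 3 genes with the highest Spearman correlation of log2(CPM + 1) were named. Ddx23, Olfr907, Fhl3, Olfr157 and the runs were chosen after their values were seen. Positions, lengths and sequences are from GENCODE M21 on GRCm38, in which 21853 of the 22253 symbols (98.2%) were found. Figures were drawn with Python 3.11.15 and matplotlib 3.10.9.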

Additional observations from a re-analysis of the deposited data

Results flagged for a closer look

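In 22 groups of values with counts above the floor, the highest or lowest library was compared with the others of its group by Dixon's ratio (95% critical value). For normally distributed values chance alone passes it in about 1 of 20 groups. The CPM values were not shown to be so distributed, and the rate for them is not known. In central GFP–-RPE, Cldn2 had a library far below the rest, mouse 7 at 2.88 CPM against 57.3 CPM for the next. Ocln had one far above, mouse 4 at 49.6 CPM against 13.0, and Cdh2 likewise, mouse 6 at 22.9 CPM against 6.27. In peripheral GFP–-RPE, Cldn3 was at 15.0 CPM in mouse 7 and at 0 in the other 4 libraries. With the others all at 0 the ratio takes its highest value at any level of the last library, so that this flag has no weight as a test.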

How the results depend on the processing

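The count of members called was 0 in all 3 comparisons and under every alternative except 2, both in GFP+-RPE against central GFP–-RPE: DESeq2 and the mouse as a replicate block each called 1, Cldn19. The block changed no other call. The count of other junction genes called was 0 throughout except for 2 under DESeq2 in that comparison. Of 480 recomputed log2 fold changes of members, 445 kept their direction and their side of the limits, 2 became calls (Cldn19 at −2.98 with DESeq2 and −2.72 with the block) and 33 turned sign, 24 of them on leaving out 1 library. With the block, Cldn2 was 0.25, Cdh2 −2.30 and Cdh3 −0.030 in GFP+-RPE against peripheral GFP–-RPE, and Tjp1 was 0.44 in peripheral against central GFP–-RPE. The medians over all genes in these block fits were 0.068 and 0.48, and they were not subtracted from the values. Tjp1 thus lay slightly below the median gene of its fit. Without the 3 central libraries with few genes, values of peripheral against central GFP–-RPE were 0.058 for Cldn19, −0.10 for Cldn1, 0.14 for Tjp1 and −0.51 for Cdh2, and with RLE scaling Cldn1 was −0.0061. The cause was not tested. With 1 library left out, log2 fold changes ran from −0.22 to 1.33 for Cdh2 and from −0.17 to 0.45 for Cdh3 in GFP+-RPE against peripheral GFP–-RPE. In peripheral against central GFP–-RPE they ran from −0.12 to 0.16 for Cldn1, from −0.51 to 0.77 for Tjp1, from −0.41 to 1.50 for Ocln and from −0.18 to 2.18 for Cdh2. Every value that turned had an adjusted p of at least 0.963. With genes holding long runs removed before scaling, Cldn1 was −0.85 and −0.83 in the comparisons of GFP+-RPE. Cldn3 and Cdh1 were under the filter, so that no fold change is given for them, and the cause of their low counts was not tested.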
